A study of Arabidopsis thaliana with 16 samples.

Results

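The quantity described here is how far the response of the Arabidopsis thaliana root to iron deficiency differed between its upper and its lower pieces. It was defined as the mean log2 effect of -Fe medium (-Fe minus standard) in zones 3 and 4, less the mean of the same effect in zones 1 and 2. All 16 of the 16 arrays of the series entered it, 8 from the upper zones and 8 from the lower zones. Seedlings of the Columbia ecotype had grown for 5 days on standard medium before they were moved to fresh standard medium or to -Fe medium, in which 0.3 mM Ferrozine, a chelator of iron, took the place of the iron salt. Roots were then cut with a razor blade into the conical tip (zone 1), the remainder of the meristem (zone 2), the stretch below the first root hairs (zone 3) and the stretch above it (zone 4). Each of the 8 groups (4 zones, 2 media) had 2 arrays, each from a pool of about 15 roots. How long roots stayed on the new medium is given in conflicting ways, as 24 h for both media in the treatment protocol but as 1 h (standard) and 24 h (-Fe) in the descriptions of single samples. If the latter hold, medium and time cannot be told apart in any effect below.

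Roots of Arabidopsis acidify the soil, reduce ferric iron at the surface and take up ferrous iron through transporters of the epidermis, and they release coumarins, phenolic compounds that mobilise iron. Transcription factors of the bHLH family switch these genes on when iron is short, small IRON MAN peptides act upstream of them, and E3 ligases of the BRUTUS family hold them back. Uptake is known mainly from the differentiated root with root hairs, whereas the meristem is a place of high demand, since dividing cells need iron for mitochondria and for iron enzymes.

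The labelled zones were set against marker genes on standard medium. The summed intensity of 4 cell cycle and replication genes ran from 2646 to 2829 units in zone 1, from 1051 to 1618 in zone 2, from 332 to 545 in zone 3 and from 731 to 787 in zone 4. The sum of 5 root hair genes ran from 972 to 1170, 1265 to 3756, 21393 to 22090 and 13410 to 19795 units in the same order. Division markers were thus highest at the tip and root hair genes highest above the meristem. Zone 2 standard replicate 1 stood apart in the root hair genes: EXPA7, an expansin of root hair cells, read 397 units there against 31.1 on its replicate and 27.9 and 70.7 on the -Fe arrays of zone 2. Zone 4 standard replicate 2 stood apart in the control probe set for 25S rRNA, at 348 units against 2953 to 8609 on the other 15 arrays. For named genes in the upper against lower comparison, values without these 2 arrays are given where a call depends on them. No such values are given by gene for the comparisons of single zones. Markers of the root cap, endodermis, xylem and phloem had no single-gene probe set in the annotation used and were not analysed here.

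In 10 of the 11 named genes in which the iron response differed, it was more positive in the upper zones. The difference of effects passed the threshold (limma, adjusted p under 0.05) for 22 of 16505 probe sets, 0.133% of those tested. Of these 21 (0.127%) were more positive in the upper zones and 1 (0.00606%) was more negative. Without zone 2 standard replicate 1 the count was 12, as it was without the second -Fe array of zone 2 or the first -Fe array of zone 4, and without zone 3 standard replicate 1 it was 44. AT1G73120, AT3G61930, AT5G38820 and AT3G06890 passed without zone 2 standard replicate 1 and without zone 4 standard replicate 2 (adjusted p from 0.000632 to 0.00326). Of the 22, 11 were annotated to 1 gene, 10 in the positive and 1 in the negative direction. The other 11 were not named here, and their differences ran from 0.94 to 5.40 (log2). At an unadjusted p under 0.05 there were 792 probe sets, 4.8% of those tested, 369 higher and 423 lower. The median difference over all probe sets was -0.04, and 95% of them lay between -0.81 and 0.93, with a median SE of 0.33. The smallest difference that passed was 0.94 in size. In whole pieces of root, fewer cells of a type and less RNA per cell cannot be told apart.

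**Figure D1:**
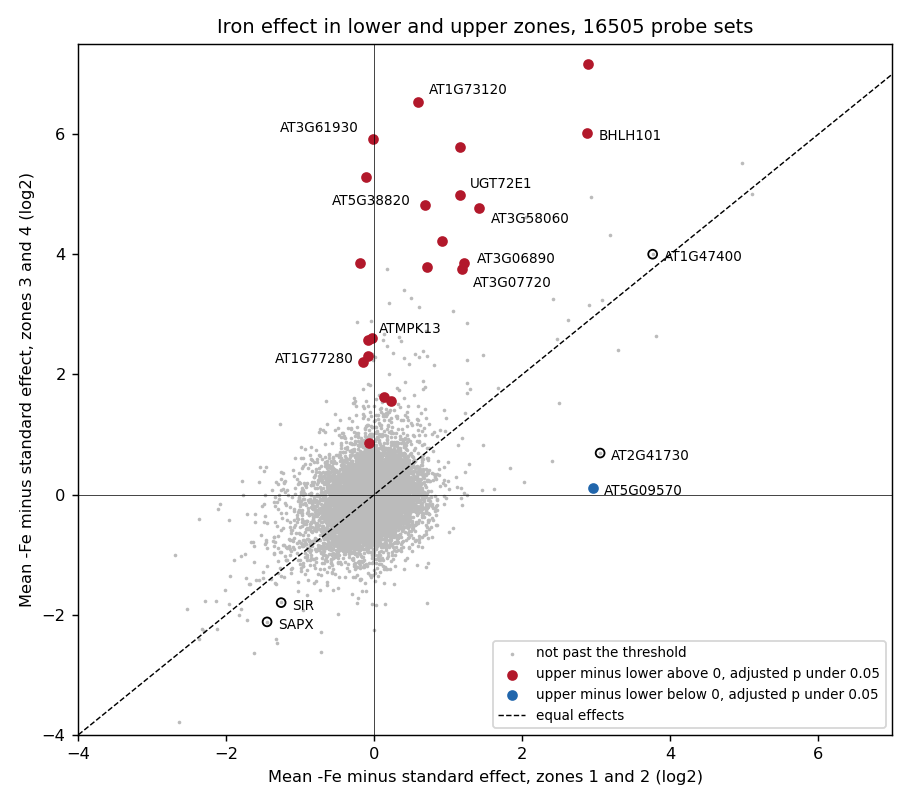
Mean -Fe minus standard effect (log2) of each of 16505 probe sets in zones 3 and 4 (vertical axis) against zones 1 and 2 (horizontal axis). The 21 red points lie above the dashed line of equal effects and the 1 blue point, AT5G09570, lies below it; AT1G47400, drawn as an open circle like 3 other genes that did not pass, lies near the line.

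AT1G73120, for which the annotation gives no name, had one of the largest differences. On standard medium its arrays gave 17.2 and 45.2 units for zone 1, 19.4 and 11.8 for zone 2, 10.3 and 19.1 for zone 3 and 11.1 and 3.30 for zone 4. On -Fe medium it read 29.6 and 43.5, 44.0 and 28.7, 778 and 443, and 5534 and 3775 units in zones 1 to 4. All 4 upper -Fe arrays were far above the other 12, whereas in zone 1 the media overlapped. The iron effect was 6.54 in the upper and 0.59 in the lower zones, a difference of 5.94 ± 0.44 (log2, SE, n = 16 arrays, limma adjusted p = 0.000117). Its upper standard arrays were near the offset of 7.73 units that was added before taking logs, and without an offset the difference was 6.68 (adjusted p = 0.000748).

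AT3G61930, likewise without a name, differed by 5.95 ± 0.56 (adjusted p = 0.000698), but from another starting point. Its standard arrays read 207 and 704, 57.1 and 98, 3.81 and 6.64, and 11 and 8.49 units from zone 1 to zone 4. Its -Fe arrays read 289 and 348, 108 and 72.5, 429 and 131, and 4171 and 2713 units. On standard medium the gene was highest at the tip, and on -Fe medium it was highest in zone 4. The effect was -0.02 in the lower and 5.92 in the upper zones. Its upper standard arrays were also near the offset, and without one the difference was 7.01 (adjusted p = 0.000707).

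AT5G38820, also without a name, read 74.8 and 70.9, 163 and 122, 93.1 and 146, and 66.7 and 56.1 units on standard medium in zones 1 to 4. On -Fe medium it read 160 and 92.3, 300 and 175, 2074 and 1908, and 4099 and 2854 units. The difference of effects was 4.14 ± 0.33 (adjusted p = 0.000143), and it was 4.14 both from the arrays numbered 1 and from the arrays numbered 2. The tested value is the mean of these 2, so their closeness is not separate evidence. The medium groups did not overlap in any zone, so the lower zones, with an effect of 0.68, shared the direction of the upper zones, with 4.82.

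**Figure D2:**
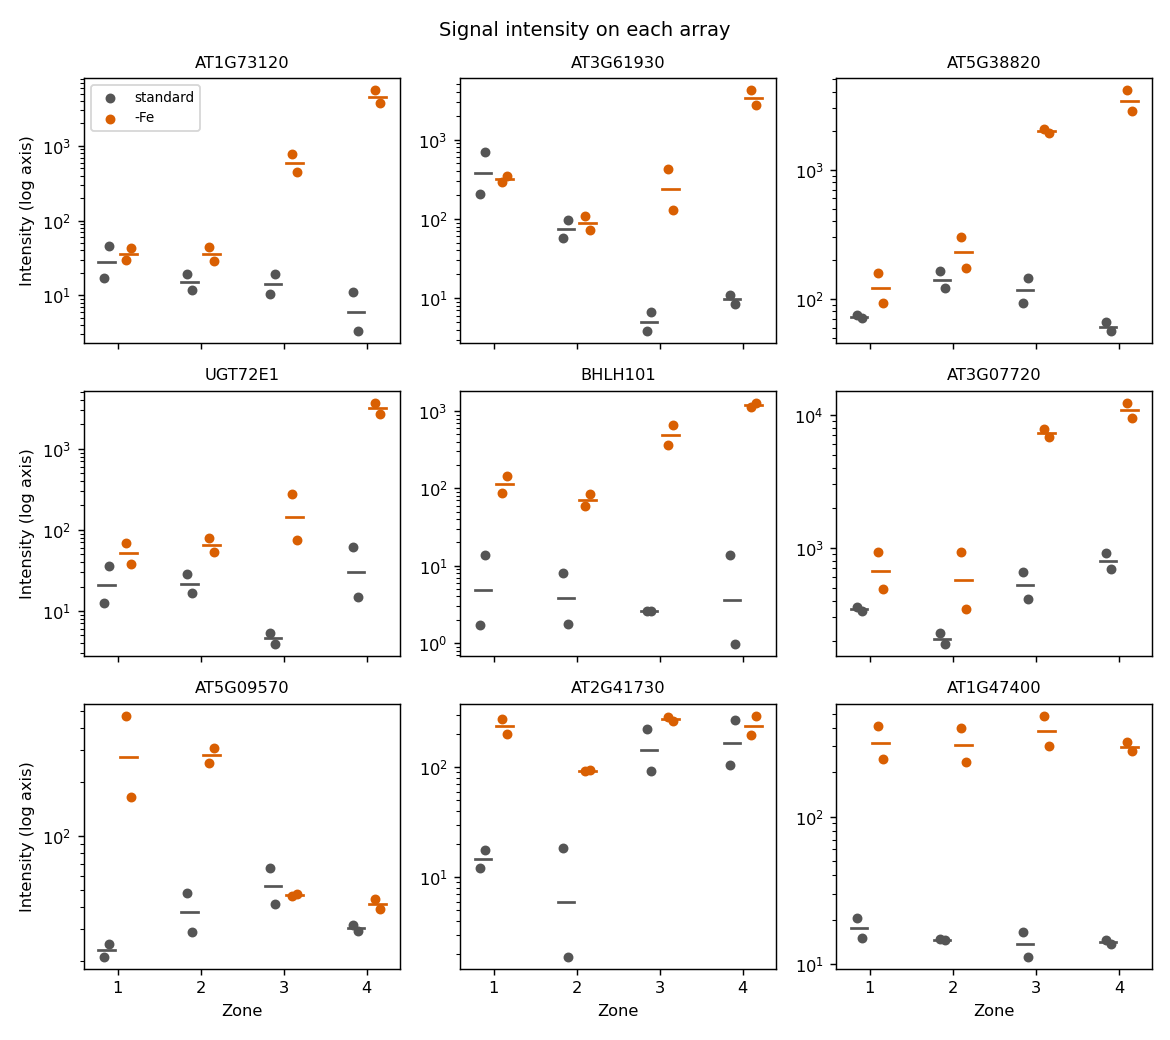
Signal intensity (log axis) of 9 genes on each of the 16 arrays by zone, standard medium in grey and -Fe medium in orange; short lines are geometric means of 2 arrays. AT1G73120 read 5534 and 3775 units in zone 4 on -Fe medium, the media of AT5G09570 lie far apart in zones 1 and 2, close together in zone 4 and overlap in zone 3, and AT1G47400 separates them in all 4 zones.

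Among the regulators of the iron response, BHLH101 differed between upper and lower zones. It encodes a bHLH factor that works with other bHLH factors to switch on iron uptake genes. On standard medium it read 1.69 and 13.9, 8.13 and 1.76, 2.58 and 2.61, and 13.6 and 0.970 units in zones 1 to 4, around or below the offset. On -Fe medium it read 87.6 and 146, 59.2 and 84.1, 359 and 658, and 1118 and 1265 units. It was thus higher on -Fe medium in each zone and reached its highest level in zone 4. The effect was 6.02 in the upper and 2.88 in the lower zones, a difference of 3.14 ± 0.50 (adjusted p = 0.0288). Without an offset the difference was 3.57 and did not pass (adjusted p = 0.850), and the call was lost without any 1 of 10 of the 16 arrays (adjusted p up to 0.111), zone 2 standard replicate 1 (0.101) and zone 4 standard replicate 2 (0.0667) among them.

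Of 24 iron regulators listed, 12 were tested and BHLH101 was the 1 that passed. Over all 9091 named genes tested, 10 passed above 0 and 1 below 0. The median of the 12 was 0.24, against -0.04 over all 9091 named genes tested, and 11 of 12 values lay above 0, against 44.7% of all named genes. Several of the 11, such as bHLH34 (0.01 ± 0.22) and ILR3 (0.13 ± 0.24), lay within their SE of 0. The list was drawn up with earlier results of these arrays known, so its direction is not independent evidence. PYE, which encodes a bHLH factor that limits parts of the iron response, had a difference of 1.74 ± 0.33 and did not pass (adjusted p = 0.0929). Its -Fe arrays read 155 and 92.8, 107 and 131, 268 and 297, and 446 and 383 units in zones 1 to 4, so that all 4 upper arrays lay above all 4 lower arrays. Its 8 standard arrays ran from 38.0 to 85.0 units. AT1G18910 (0.76) and AT2G22750 (1.15) had values above 0 that did not pass.

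By contrast, the IRON MAN peptide gene AT1G47400 (IMA1) had a difference of 0.24 ± 0.34, with a 95% interval from -0.49 to 0.98 (adjusted p = 0.999). It read 412 and 245, 403 and 237, 484 and 304, and 320 and 278 units on -Fe medium and between 11.2 and 20.4 units on all standard arrays. AT1G74770, which encodes the E3 ligase BTSL1, had a difference of 0.25 ± 0.51, and 0.84 ± 0.70 on its other probe set. Its level was higher in the upper zones on both media, by 2.39 on standard and 2.64 on -Fe medium (log2). These values do not show that the effect was equal in all zones. The bHLH factors bHLH104 (0.20), bHLH115 (-0.34) and NAI1 (0.19) had small differences that did not pass.

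Of 36 iron uptake and transport genes listed, only 2 had a single-gene probe set and both were tested. AT3G58060, a metal transporter gene, differed by 3.35 ± 0.52 (adjusted p = 0.0276). It read 1.87 and 4.64, 1.67 and 2.53, 4.46 and 35.1, and 6.90 and 20.6 units on standard medium in zones 1 to 4. On -Fe medium it read 2.93 and 8.77, 54.0 and 44.9, 432 and 362, and 1088 and 651 units. Zone 1 was low on both media, while from zone 2 upwards the media did not overlap. Its zone effects were 0.28, 2.54, 4.14 and 5.38. Since its low values lay below the offset, the size depends on it: without one the difference was 2.88 (adjusted p = 0.822). The call was also lost with quantile normalization and without any 1 of 11 arrays, zone 2 standard replicate 1 among them (adjusted p = 0.0760). ZIP9, a zinc transporter family gene, had a difference of 0.22 ± 0.50 and did not pass.

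Of 20 genes listed for coumarin synthesis and release, 10 were tested and 1 passed, against 10 above 0 and 1 below 0 over all 9091 named genes. UGT72E1, a UDP-glucosyltransferase gene of phenylpropanoid metabolism, differed by 3.83 ± 0.62 (adjusted p = 0.0288). Its standard arrays read 12.4 and 35.7, 28.2 and 16.6, 5.39 and 3.90, and 61.2 and 14.7 units in zones 1 to 4, and its -Fe arrays 68.6 and 38.2, 80.2 and 52.8, 279 and 74.4, and 3664 and 2710 units. The media did not overlap in any zone, and the 2 arrays of zone 4 on -Fe medium stood far above all others. The call was lost without an offset (4.41, adjusted p = 0.0917) and without any 1 of 11 arrays (adjusted p up to 0.123), among them zone 2 standard replicate 1 (0.102) and zone 4 standard replicate 2 (0.0674). The list median was 0.58, and 0.10 without zone 2 standard replicate 1. Of the 10 genes, 3 had differences below 0, as had 5030 of 9091 named genes. These were UGT71C1 (-0.79, with a zone 4 effect of -1.16), UGT72E2 (-0.35) and PYK10 (-0.16), and none passed.

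Zone 4 alone carried the values of 2 further coumarin genes. The beta-glucosidase gene BGLU42 read 5047 and 2834 units in zone 4 on -Fe medium and 523 and 156 in zone 3. Its difference over both upper zones was 2.36 ± 0.45 and did not pass (adjusted p = 0.0929). AT3G12900, which encodes the scopoletin 8-hydroxylase S8H, read 4171 and 1326 units in zone 4 on -Fe medium, 82.6 and 2.70 in zone 3 and 3.28 to 26.1 units on the other 12 arrays. Its difference was 3.58 ± 0.83 (adjusted p = 0.224). Tested by limma as zone 4 against the lower zones, both passed, BGLU42 at 4.43 (adjusted p = 0.00405) and AT3G12900 at 7.10 (adjusted p = 0.00868). Zone 4 is where both were seen to read high, so these passes are not independent evidence. For AT3G12900 the 2 arrays of zone 4 on -Fe medium were also enough to meet the filter on level. AT3G13610, the feruloyl-CoA 6'-hydroxylase gene F6'H1, which starts coumarin synthesis, had a difference of 0.98 ± 0.91 and did not pass, although its level was higher in the upper zones on both media, by 5.64 and 6.62 (log2).

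ATMPK13, a MAP kinase gene, and AT1G77280 and AT3G07720, for which the annotation gives no name, were the other genes with a positive difference beside AT3G06890. ATMPK13 read 0.455 to 2.35 units over the lower standard arrays, 0.431 to 0.680 over the lower -Fe arrays, 0.468 to 7.98 over the upper standard arrays and 34.1, 35.4, 128 and 92.9 on the upper -Fe arrays. It was thus above the offset on the 4 upper -Fe arrays and once, barely, elsewhere. Only the upper -Fe arrays, where it was high, carried it past the filter on level, and under a stricter filter it was not tested. Its difference was 2.66 ± 0.38 (adjusted p = 0.0137), and 4.99 without an offset, where it did not pass (adjusted p = 0.762). It was also lost without 1 array of zone 2 on either medium (standard replicate 1, adjusted p = 0.0582, or -Fe replicate 2) or the first -Fe array of zone 4 (adjusted p up to 0.0711).

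AT3G07720 read 360 and 335, 229 and 189, 659 and 414, and 913 and 694 units on standard medium, and 935 and 486, 934 and 346, 7778 and 6770, and 12198 and 9510 on -Fe medium. The media did not overlap in any zone, and the effects of zones 3 and 4 were nearly alike, at 3.78 and 3.75. The difference from the lower zones was 2.58 ± 0.41 (adjusted p = 0.0283). AT1G77280 read 147 and 116 units in zone 3 and 215 and 133 in zone 4 on standard medium, against 527 and 537, and 1225 and 994 on -Fe medium. In zones 1 and 2 it read 25.7 to 63.2 units on standard and 23.7 to 44.2 on -Fe medium, ranges that overlapped. It differed by 2.39 ± 0.38 (adjusted p = 0.0283). The call of AT3G07720 was lost without any 1 of 12 arrays, zone 2 standard replicate 1 (adjusted p = 0.0998) and zone 4 standard replicate 2 (0.0916) among them, and with array weights (0.0614), no offset (0.063) or no trend in the variance prior (0.0553). That of AT1G77280 was lost without any 1 of 11 arrays, the same 2 among them (0.0606 and 0.0878), and with no offset (0.127).

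AT3G06890, without a name, had the smallest SE of the 11 named genes that passed, with a difference of 2.65 ± 0.26 (adjusted p = 0.000732). It read 154 and 185, 280 and 267, 58.6 and 69.9, and 27.2 and 31.6 units on standard medium and 414 and 238, 791 and 837, 440 and 336, and 1529 and 1299 on -Fe medium. The media did not overlap in any zone, with effects of 0.87, 1.54, 2.45 and 5.26 from zone 1 to zone 4. It was also the 1 named gene whose effect differed between the upper zones themselves, by 2.81 (adjusted p = 0.0409). That call held without an array in only 2 of 16 fits (adjusted p up to 0.244) and was lost in 4 of 12 other settings, the replicate block per zone among them (adjusted p = 0.0856).

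**Figure D3:**
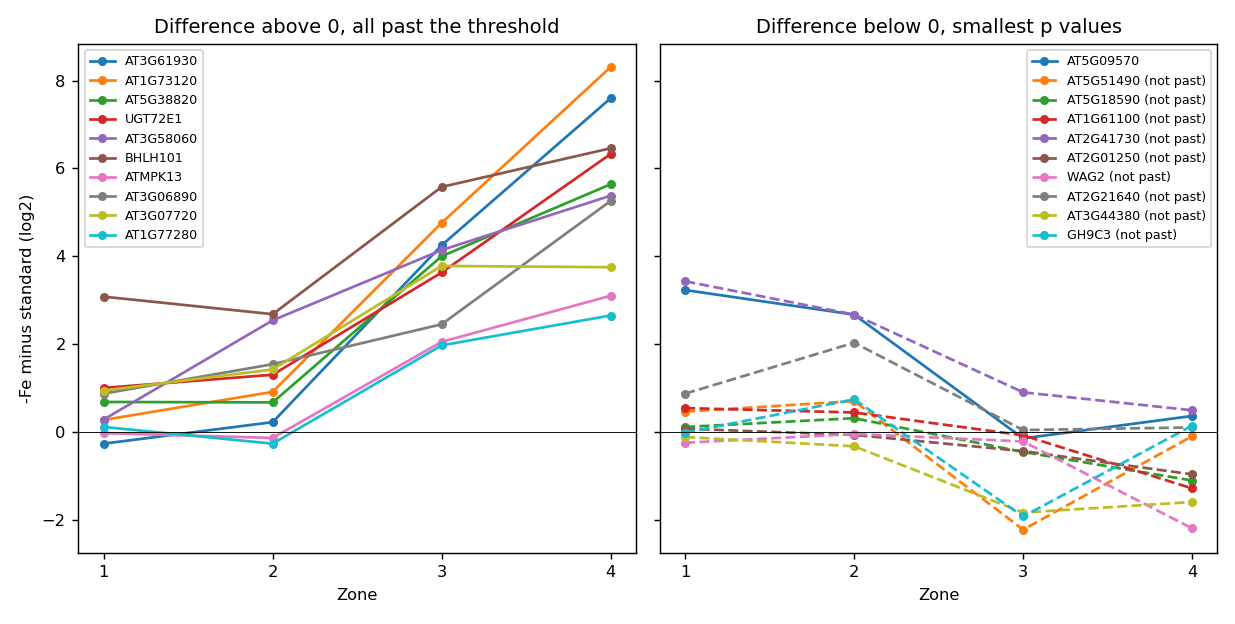
Effect of -Fe medium (log2) in each zone for the 10 named genes with a positive difference (left) and the 10 negative differences with the smallest p (right). On the left AT1G73120 reaches 8.31 in zone 4; on the right AT5G09570, the 1 solid line, starts at 3.23 in zone 1 and is at -0.15 in zone 3.

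In the single named gene that passed in the other direction, the effect was larger in the lower zones. AT5G09570, of a list of genes known to answer mitochondrial stress, read 21.1 and 24.8, 48.2 and 29.1, 65.9 and 41.6, and 31.8 and 29.3 units on standard medium in zones 1 to 4. On -Fe medium it read 468 and 164, 256 and 311, 45.9 and 47.3, and 44.2 and 38.8 units. The 4 lower -Fe arrays lay above all 12 others, and in zone 3 the 2 -Fe values lay between the 2 standard values. In zone 4 both -Fe values lay above both standard values, with an effect of 0.36. Both upper effects lay below both lower effects here and above them in the 21 positive probe sets, an order that the choice by this difference largely fixes (22.9% and 16.7% of all probe sets tested had the one and the other). The effect was 0.11 in the upper and 2.95 in the lower zones, a difference of -2.84 ± 0.41 (adjusted p = 0.0137). It did not pass without any 1 of 3 arrays, which were the first standard array of zone 1, the second -Fe array of zone 2 and the first -Fe array of zone 4 (adjusted p up to 0.0677).

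Of 9 mitochondrial stress genes listed, 5 were tested, and their median difference was -1.37 against -0.04 over all named genes. The list was drawn up with earlier results of these arrays known, so its direction is not independent evidence. AT2G41730 had a difference of -2.35 ± 0.52 and did not pass (adjusted p = 0.178). Its standard arrays read 12.2, 17.9, 18.6 and 1.90 in the lower and 221, 93.0, 104 and 269 units in the upper zones. Its -Fe arrays read 275, 200, 91.9 and 94.7 in the lower and 286, 264, 195 and 293 in the upper zones. The lower -Fe values overlapped those of the upper zones on standard medium. Its probe set is of a type that can share signal with similar transcripts.

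AT2G21640 had a difference of -1.37 ± 0.32 and did not pass (adjusted p = 0.231). It read 110, 62.1, 119 and 83.2 units on the lower -Fe arrays against 16.7 to 44.1 on the lower standard arrays, 20.8 to 33.0 on the upper standard arrays and 22.7 to 36.7 on the upper -Fe arrays. NDB2, an alternative NAD(P)H dehydrogenase gene of mitochondria, was at -0.54 and AT5G64400 at 0.01, and neither passed.

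The other 7 negative differences with the smallest p values did not pass. AT5G51490, a pectin methylesterase gene, was at -1.75 (adjusted p = 0.148), with a zone 3 effect of -2.23 and a zone 4 effect of -0.10. GH9C3, a glycosyl hydrolase gene, was at -1.26 with the same split (-1.93 in zone 3 and 0.14 in zone 4). In zone 4 both genes were already below the offset of 7.73 units on standard medium, so a fall there could not show. AT5G51490 read 3.24 and 3.78 units on those arrays and GH9C3 3.19 and 3.38. WAG2, a protein kinase gene, was at -1.06, and its value rested on zone 4, where it read 106 and 102 units on standard and 16.3 and 16.6 on -Fe medium. AT3G44380 (-1.50) had like effects in both upper zones, -1.84 and -1.60. AT1G61100 (-1.18), AT5G18590 (-1.0) and the ribosomal protein gene AT2G01250 (-0.71) had adjusted p values of 0.177, 0.150 and 0.199.

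Of 34 genes listed for ferritins, heme and iron-sulfur proteins, 7 were tested. None of the 7 had a difference that passed, where 10 passed above 0 and 1 below 0 over all 9091 named genes. The median difference of the 7 was -0.33, and their median effect was -0.56 in the upper and -0.51 in the lower zones. The gene of the heme enzyme stromal ascorbate peroxidase, SAPX, had effects of -1.32, -1.58, -1.90 and -2.35 in zones 1 to 4 and a difference of -0.68 ± 0.22 (adjusted p = 0.784). SIR, the sulfite reductase, had effects of -1.22, -1.30, -1.49 and -2.11 and a difference of -0.54 ± 0.23 (adjusted p = 0.999). For both genes the 95% interval lay below 0 when taken alone, which the adjustment over all probe sets did not bear out.

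A difference of effects equals the upper minus lower gradient on -Fe medium less that on standard medium. Both gradients are given here, and which medium gave rise to a difference was not tested. In 13 of the 22 probe sets the standard level of the upper zones was within 1 log2 unit of that of the lower zones. AT1G73120 (-0.70 on standard, 5.24 on -Fe medium), AT5G38820 (-0.24 and 3.90), UGT72E1 (-0.42 and 3.41), BHLH101 (-0.16 and 2.98) and ATMPK13 (0.43 and 3.09) were of this kind. AT5G09570 went from 0.37 to -2.48. AT3G58060 (1.06 and 4.41), AT3G07720 (1.24 and 3.82) and AT1G77280 (1.91 and 4.30) were already higher in the upper zones on standard medium. In AT3G61930 (-3.58 and 2.36) and AT3G06890 (-2.11 and 0.54) the mean gradient changed sign between the media. On -Fe medium zone 4 lay above both lower zones, but zone 3 did not. There AT3G61930 averaged 280 units in zone 3 against 319 in zone 1, and AT3G06890 388 against 814 in zone 2. In 4 of the 22 probe sets the standard gradient was the larger of the 2 in size. The shares over all probe sets tested are not given for these counts of 13 and 4. Neither count is therefore read as particular to the 22. BGLU42, which did not pass, had the same change of sign (-1.97 and 0.39, each with an SE of 0.32). It averaged 339 units in zone 3 on -Fe medium, below the 926 and 687 of zones 1 and 2.

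**Figure D4:**
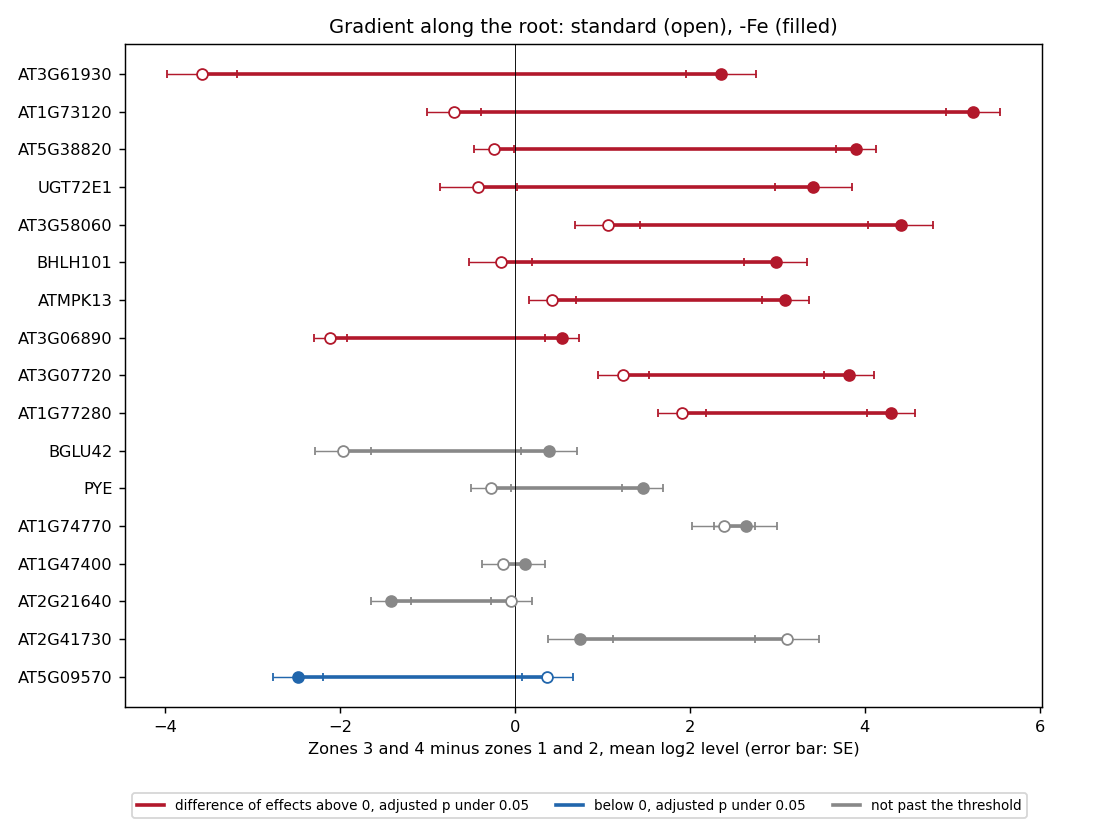
Upper minus lower level (log2; zones 3 and 4 minus zones 1 and 2) on standard medium (open circles) and on -Fe medium (filled circles) for the 11 named genes that passed and 6 others, with SE bars. Thick lines join the media of a gene: those of AT3G61930 (-3.58 to 2.36) and AT3G06890 (-2.11 to 0.54) run from below to above 0, and those of AT1G47400 (-0.14 to 0.11) and AT1G74770 (2.39 to 2.64) are short.

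Within the upper zones, 20 of the 21 positive probe sets had a larger effect in zone 4 than in zone 3, against 48.0% of all probe sets tested. The 21 were chosen by the mean of these same 2 effects, which a large zone 4 effect raises. The count is therefore not independent evidence. The test of zone 4 against zone 3 passed for 2 of 16505 probe sets (0.0121%), both higher in zone 4, and for 1 of the 21. Within the lower zones, 12 of the 21 had a larger effect in zone 2 than in zone 1, against 41.9% of all probe sets. The test of zone 2 against zone 1 passed for 0 probe sets (limma), with 152 at an unadjusted p under 0.05. Taken alone against the lower zones, zone 4 gave 51 probe sets (0.309%), 49 higher (0.297%) and 2 lower, and zone 3 gave 3 (0.0182%), all higher. Both upper zones gave 6 (0.0364%), all higher, against zone 2 alone, and 13 (0.0788%), 12 of them higher (0.0727%), against zone 1 alone. Among the 22, 20 passed with zone 4 alone and 3 with zone 3 alone. The 2 arrays of zone 3 on standard medium were the least alike, with an SD of 0.83 for their log2 difference, against 0.50 to 0.66 in the other groups.

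Root hair genes had a list median of 1.29 with no member of the 5 tested past the threshold. Without single arrays the median ran from 0.37 to 1.99, and the lowest value was that without zone 2 standard replicate 1, which read high in these genes. AT4G26010, a peroxidase gene of the list, read 939 units on that array and 37.6 on its replicate, and its difference of 1.95 ± 0.97 did not pass (adjusted p = 0.999). The 4 cell elongation genes tested had a median of -0.59, all below 0 (as were 5030 of 9091 named genes) and none past the threshold. Without single arrays that median ran from -1.05 (the same array) to -0.21 (zone 2 standard replicate 2). XTH19, a xyloglucan endotransglucosylase gene, had the largest of these, -1.47 ± 0.69. The 4 cell cycle and replication genes had a median of 0.11 and none passed. The part of these cell type genes in the differences of the iron genes was not tested.

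**Figure D5:**
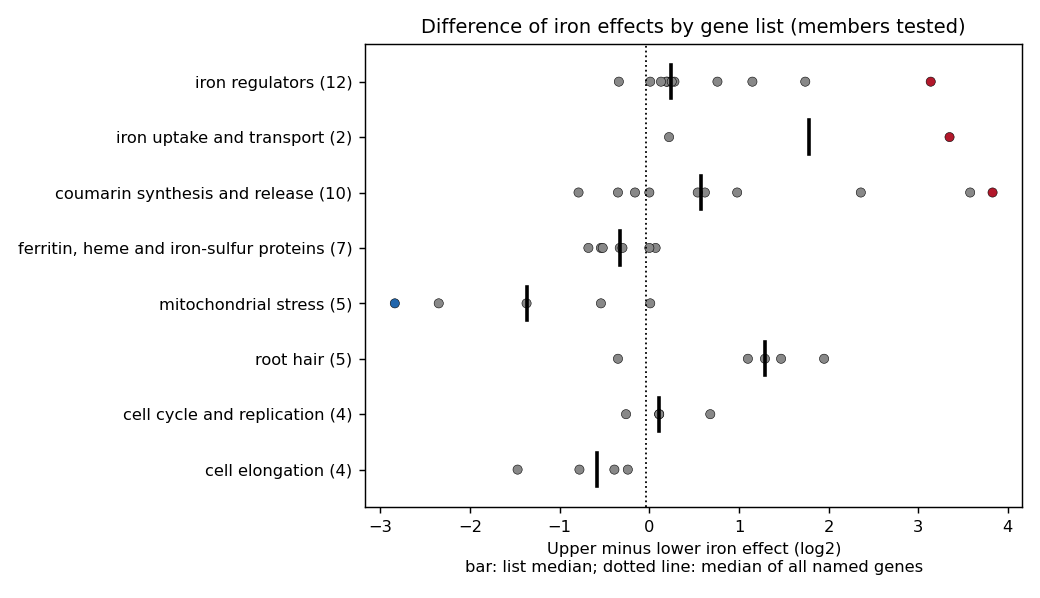
Difference of iron effects (upper minus lower, log2) of each tested member of 8 gene lists, with the list median as a bar and the median of all named genes (-0.04) as a dotted line. Red and blue points passed the threshold: BHLH101, AT3G58060 and UGT72E1 above 0 and AT5G09570 below 0.

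The arrays numbered 1 and those numbered 2 each give an estimate of the difference of effects from 8 arrays. The tested difference is their mean, and a small spread between replicates helps a gene to pass. Closeness of the 2 estimates in genes that passed is therefore not independent evidence. The 2 estimates were 6.07 and 5.82 for AT1G73120, 5.87 and 6.03 for AT3G61930, 2.68 and 2.61 for AT3G06890 and -3.17 and -2.51 for AT5G09570. Among the 11 named genes that passed they were furthest apart for AT3G58060, at 4.27 and 2.44, and for AT3G07720, at 1.96 and 3.20. Across all 16505 probe sets, which are not independent of each other, the 2 estimates correlated at r = 0.20 and had the same sign in 53.1%.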

How the data were processed

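For each of 22810 probe sets the authors deposited a linear signal intensity, made with MAS5 per the submitters' processing notes, with no version named. The mean between the 2nd and 98th percentiles was close to 250 units on every array, as global scaling gives. Median intensity ran from 51.3 to 76.0 units. After leaving out 64 control probe sets, log2(intensity + 7.73) was taken, where the offset is the 20th percentile over all arrays. The offset understates changes of dim probe sets. A difference of such changes can come out larger with it (AT3G58060, 3.35 against 2.88 without) or smaller (BHLH101, 3.14 against 3.57). Probe sets above the 40th percentile of their array on at least 2 arrays were tested, 16505 in all. Limma 3.58.1 in R 4.3.3 fitted 8 group means to 16 arrays (8 residual degrees of freedom, intensity trend in the variance prior), and p-values were adjusted by Benjamini-Hochberg over all probe sets within each contrast (threshold 0.05). The procedure was tested on simulated data.

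Genes were named from the platform annotation, updated to RefSeq TAIR10.1. Of 22746 probe sets, 13513 had 1 gene (13484 matched to RefSeq), 503 several, and 8730 were not listed. Of several probe sets for a gene the one with the highest mean was used. Named genes were the 12 largest differences past the threshold in each direction, the 10 smallest p values where fewer than 10 passed, the 5 smallest p of the contrasts between neighbouring zones, list members with the smallest p, and a few iron genes named in every case. The members and lists were chosen with earlier results of these data known. Same-numbered standard and -Fe arrays of a zone deviated together in all 4 zones (r from 0.18 to 0.37), although r over 0.1 was also found in 6 of 12 group pairs that shared only a medium (up to 0.38) and in 5 of 12 that shared neither (up to 0.46). A replicate block per zone was therefore fitted only beside the main design. The labels name pools of roots but not separate cultures for the replicates. The p-values then measure only the spread between pools, which may be technical. The number of arrays limits the precision. No sequences or coordinates were used here.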

Additional observations from a re-analysis of the deposited data

Results flagged for a closer look

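The test of the difference itself set 11 named genes apart, in that their iron effect differed between upper and lower zones. The differences (upper minus lower, log2) were 5.95 for AT3G61930, 5.94 for AT1G73120, 4.14 for AT5G38820, 3.83 for UGT72E1, 3.35 for AT3G58060, 3.14 for BHLH101, 2.66 for ATMPK13, 2.65 for AT3G06890, 2.58 for AT3G07720, 2.39 for AT1G77280 and -2.84 for AT5G09570.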

How the results depend on the processing

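The count of 22 probe sets (21 higher, 1 lower) was within 1.5 times of itself under the other normalizations, filters, variance priors, array weights and replicate blocks, and it fell to 10 (9 higher) without an offset. By zone it was 51 (49 higher, 2 lower) with zone 4 alone, 3 (3 higher, 0 lower) with zone 3 alone, 6 (6 higher, 0 lower) with zone 2 alone as the lower zone and 13 (12 higher) with zone 1 alone. The lower count was 2 with a replicate block over all groups or per medium. With the replicate block per zone, 29 probe sets passed, and no named gene changed its call in the upper against lower comparison. Leaving out single arrays gave 12 to 44 probe sets in all, 11 to 38 higher and 0 to 6 lower. For zone 4 against zone 3 the count of 2 became 0 with array weights or no offset, 1 with the replicate block per zone, 4 with the other replicate blocks or the stricter filter, 5 without the trend or with quantile normalization, 7 with median centring and 12 with the offset doubled, and it ran from 0 to 3 without single arrays. For zone 3 against the lower zones the count of 3 became 0 with array weights and 5 with the replicate block per medium or per zone, and 0 to 30 without single arrays. For zone 4 against the lower zones the count of 51 became 21 with no offset, and 15 to 62 without single arrays. The cause was not tested. AT3G61930, AT1G73120, AT5G38820 and AT3G06890 passed in 16 of 16 fits without an array and in 12 of 12 other settings. With zone 3 alone against the lower zones, AT1G73120 (4.17, limma adjusted p = 0.0216) and AT5G38820 (3.32, adjusted p = 0.0174) passed. AT3G61930 (4.28, adjusted p = 0.103) and AT3G06890 (1.25, adjusted p = 0.999) did not. Signals near the offset of 7.73 units limit the sizes for BHLH101, AT3G58060, ATMPK13, UGT72E1, AT3G61930 and AT1G73120.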

Other observations

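Gene families found by words in their annotation were described in the same way. Of 37 UDP-glycosyltransferase genes tested, UGT72E1 passed, against 10 above 0 and 1 below 0 over all 9091 named genes. The family median was -0.01. UGT71C2 had the second smallest p of this family, with a difference of -1.36 ± 0.34 that did not pass (adjusted p = 0.302). All 7 tubulin genes had differences below 0 (median -0.28), as had 5030 of 9091 named genes, and none of the 7 passed. In 5 of the 7 both upper effects lay below both lower effects, against 22.9% of all probe sets tested. TUB1 had the largest of them, -1.06 ± 0.51.

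All 6 WRKY genes tested had differences above 0 (median 0.29), against 44.7% of all named genes, and none passed. ZAP1 was at 0.32 ± 0.27 and WRKY6 at 0.28 ± 0.33. WRKY22, which encodes a transcription factor of immune signalling, read 226 and 285 units in zone 4 on -Fe medium and between 15.3 and 61.8 units on all 14 other arrays, with a difference of 1.63 ± 0.34 (adjusted p = 0.150). Of 8 SWEET sugar transporter genes none passed, and SWEET17 had a difference of 1.05 ± 0.38. The medians of 15 expansin genes (-0.03), 11 cytochrome P450 genes (-0.01) and 11 glutathione S-transferase genes (-0.07) lay near the -0.04 of all named genes.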
